A study of Mus musculus with 13 samples.

Results

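Enteroendocrine cells are the hormone-secreting cells of the gut epithelium, and here they are the 256 barcodes, of 118892 kept and 137591 deposited, that carried epithelial transcripts together with chromogranin transcripts. A barcode was a member when its raw unique molecular identifiers (UMIs, 1 per captured RNA molecule) summed to at least 5 over Epcam, Krt8 and Krt18, to 0 for the leukocyte gene Ptprc, to at least 5 over the granule genes Chga and Chgb, and to fewer than 10 for the goblet mucin Muc2. Barcodes that met the Epcam, Krt8 and Krt18 minimum with no Ptprc UMI are called epithelial, and there were 33942 of them. Members came mostly from adjacent normal mucosa of the colon, which gave 240 members, while 10 colon tumors together gave 16.

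The libraries were 10x Genomics 3′ single-cell RNA libraries from 3 C57BL/6J mice, all of them ApcMin/+; p16cis/cis and all fed the supplemented NIH-31 diet (extra folate and related cofactors) with no other diet in this series. ApcMin is a germline truncating mutation of the tumor suppressor Apc, and p16cis/cis is the p16 epimutation carried by the line. Mouse A, aged 24 weeks, gave mucosa library 2 and tumors 5 to 8. Mouse B, aged 23 weeks, gave mucosa library 3 and tumors 9 and 10, and mouse C, aged 20 weeks, gave mucosa library 1 and tumors 1 to 4. Mucosa was dissociated with EDTA and TrypLE and tumors with a tumor dissociation kit, so tissue and dissociation cannot be told apart. The libraries held 57221300 to 116133079 UMIs. Although 7 of the 13 libraries were labelled female, Xist did not exceed 0.129 CPM (UMIs of a gene scaled to the summed UMIs of the library or cell group) and the Y-linked genes together gave 104 to 126 CPM in every library, so the label was not used. No member barcode of 1 library was a member in another, and 9 member barcodes also occurred as a barcode elsewhere among the 2334 shared over the 78 pairs of libraries.

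As background, enteroendocrine cells arise from crypt progenitors that switch on the transcription factor Neurog3 and then Neurod1, and they store hormones in dense-core granules packed with chromogranins. In the colon the main types are enterochromaffin cells, which make serotonin with the enzyme Tph1, L cells, which make Gcg (the precursor of GLP-1), Pyy and Insl5, and D cells, which make somatostatin (Sst). Their secretion responds to nutrients, bacterial metabolites and neural signals.

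The promoters of Sst and of the gate gene Chgb are shown because both carry the palindrome TGACGTCA, the cyclic AMP response element first described in the Sst promoter, and because Sst transcripts marked a small set of members described below. Each stretch is the 250 bases before the gene's start in RefSeq (GRCm38.p6), written 5′ to 3′ along the gene's strand, and capitals mark the palindrome. The Sst stretch is chr16:23890845-23891094 on the minus strand, and the Chgb stretch is chr2:132781392-132781641 on the plus strand.
Sst: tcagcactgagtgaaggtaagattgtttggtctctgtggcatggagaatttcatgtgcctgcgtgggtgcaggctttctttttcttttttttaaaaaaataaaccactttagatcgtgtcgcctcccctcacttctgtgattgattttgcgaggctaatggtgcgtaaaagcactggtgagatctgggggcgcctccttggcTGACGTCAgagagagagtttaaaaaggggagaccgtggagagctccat
Chgb: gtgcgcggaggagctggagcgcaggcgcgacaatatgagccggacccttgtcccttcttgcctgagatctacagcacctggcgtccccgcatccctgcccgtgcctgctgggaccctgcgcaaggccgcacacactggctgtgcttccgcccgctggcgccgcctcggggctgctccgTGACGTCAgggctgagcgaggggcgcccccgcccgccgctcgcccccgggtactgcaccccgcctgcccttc
The palindrome began 48 bases before the start of Sst and 72 bases before that of Chgb. It reads the same on both strands and was present in 508 of 32851 such stretches (1.55%), and its presence says nothing here of any factor's binding.

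Members made up 1.15% of epithelial barcodes in mucosa library 1 (31 of 2693), 1.49% in library 2 (120 of 8076) and 1.53% in library 3 (89 of 5826). In the tumors the share ran from 0.0432% (1 of 2314) to 0.243% (3 of 1237), and every tumor held at least 1 member. All 10 tumors lay below the mucosa of their own mouse, and the ranges did not overlap. Averaged over tumors within mice, the share was 0.110% ± 0.0443 (SD, n = 3 mice) in tumors against 1.39% ± 0.206 in mucosa, a difference of -1.28 percentage points (exact two-sided permutation test within mice, *P* = 0.0133, the smallest that its 75 assignments allow). With epithelial barcodes thinned to 3000 UMIs, the shares were 0.126% and 0.985%, and over all kept barcodes they were 0.0194% and 0.898%. At a Chga plus Chgb minimum of 2 UMIs they were 0.266% and 1.63%. Without mouse C (mucosa library 1 and its tumors) or without mouse A (mucosa library 2 and its tumors) the exact *P* was 0.0667, which is then the smallest possible.

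**Figure D1:**
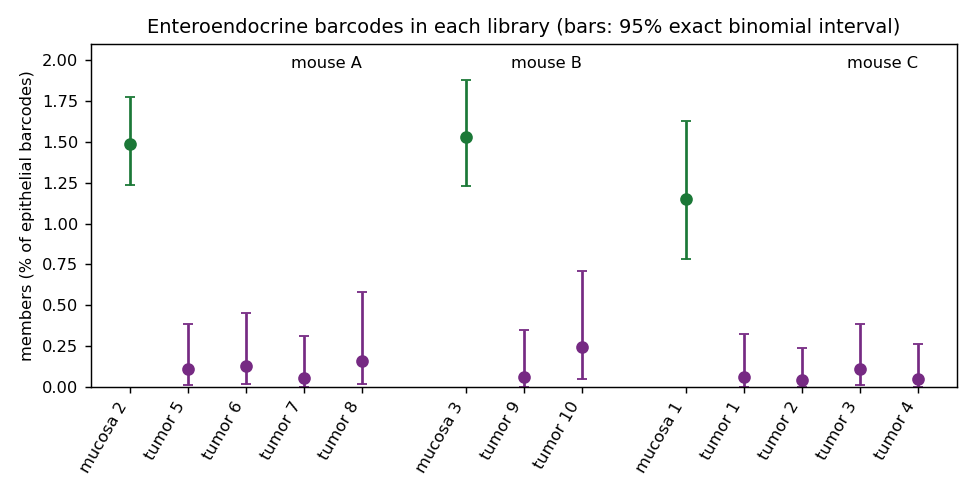
Members as a percentage of epithelial barcodes (y axis) in each of the 13 libraries (x axis), grouped by mouse, with mucosa in green and tumors in purple. Bars are 95% exact binomial intervals, which cover counting error only. The 3 mucosa libraries sit between 1.15% and 1.53%, and the 10 tumors at 0.243% or below.

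In mucosa the threshold of 5 chromogranin UMIs fell among barcodes of similar Neurod1 and hormone-class content. Of mucosa barcodes with 3 to 4 Chga plus Chgb UMIs, just outside, 14 of 19 had a Neurod1 UMI and 15 had at least 5 UMIs over Gcg, Pyy, Sst and Tph1. Of those with 5 to 9, just inside, 20 of 23 had a Neurod1 UMI and 15 had at least 5 hormone-class UMIs. Of the 420 barcodes with 1 or 2 chromogranin UMIs, 10 had a Neurod1 UMI. In tumors a Neurod1 UMI was found in 0 of 6 barcodes with 3 to 4 and in 0 of 152 with 1 or 2 chromogranin UMIs, while 2 of the 6 and 6 of the 152 had at least 5 hormone-class UMIs, and all 16 members had 10 or more chromogranin UMIs. In mucosa the gate therefore left out a few barcodes with Neurod1 and hormone-class transcripts. The Gcg/Pyy and Sst members, which were low in chromogranin, sat nearer to the threshold than the Tph1 members. The granule gene Scg2 had a UMI in 9 of the 19 mucosa barcodes just outside, in 5 of the 23 just inside and in 15 of the 217 with 10 or more. The keratin, Ptprc and Muc2 limits removed, in this order, 25, 7 and 16 of the 288 mucosa barcodes that had reached the chromogranin minimum. In tumors they removed 3, 8 and 1 of 28, so the Ptprc limit took a larger part of the tumor barcodes, and its part in the tumor share was not tested.

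The label was checked on markers that the gate did not use. Neurod1, the transcription factor that follows Neurog3 in endocrine differentiation, had a UMI in 206 of 240 mucosa members (85.8%, 95% exact binomial interval 80.8 to 90.0%). Pyy had a UMI in 62 mucosa members and Gcg in 34. Epithelial barcodes without any Chga or Chgb UMI served as background, in which free RNA and the cells' own transcripts cannot be told apart. There a Pyy UMI was found in 1.36% to 3.03% of barcodes by library, a Gcg UMI in 0.341% to 0.874% and a Tph1 UMI in 0.0379% to 0.614%. Members were shallower than the other epithelial barcodes of the same library, with median UMIs of 10709 against 24436.5, 4122 against 10525.5 and 6089 against 14898 in libraries 1 to 3. Their median mitochondrial share was also lower, at 1.90%, 2.83% and 3.13% against 3.53%, 5.12% and 4.69%.

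Members were then divided by hormone-class UMIs, with at least 5 UMIs of Gcg plus Pyy, of Sst or of Tph1 placing a member in a class. Among the 240 mucosa members, 134 were Tph1 members, 40 were Gcg/Pyy members, 1 was an Sst member, 15 met more than 1 of these minimums and 50 met none. Tph1 members made up 41.9%, 52.5% and 65.2% of members in libraries 1, 2 and 3 (53.2% ± 11.6, SD, n = 3), and Gcg/Pyy members made up 29.0%, 18.3% and 10.1% (19.2% ± 9.49). Tph1 members outnumbered Gcg/Pyy members in each library at this minimum, but in library 1 the order did not hold under other settings, with 8 Tph1 against 9 Gcg/Pyy members after thinning to 3000 UMIs, 6 against 8 without possible doublets (members with at least 10 UMIs of absorptive genes or among the deepest 5% of their library) and 10 of each at a minimum of 10 UMIs. The absorptive genes of the doublet definition include Krt20, which was at 957 CPM in Tph1 and 384 CPM in Gcg/Pyy members. That definition can therefore take more Tph1 members. Of the 15 mixed members, 14 combined Sst with Pyy or Gcg and 1 combined Tph1 with Gcg or Pyy. The Tph1 and the Gcg/Pyy programs were therefore almost never read from the same barcode. The classes rest on fixed UMI counts. The setting thinned to 3000 UMIs held 28 of 31, 85 of 120 and 72 of 89 members in libraries 1 to 3. In it the mean Tph1 share was 37.2%, and the unclassed share was 31.2% against 18.1% before. Tph1 members were the shallower class, with a median of 3993.5 UMIs against 10511 in Gcg/Pyy members. The parts of thinning and of the members left out were not told apart. The chromogranin minimum of the gate was not varied for these shares. Gcg/Pyy members lay nearer to it, with a median Chga plus Chgb sum of 13 UMIs against 294 in Tph1 members. The shares are therefore those of members and not of all endocrine cells of the mucosa.

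**Figure D2:**
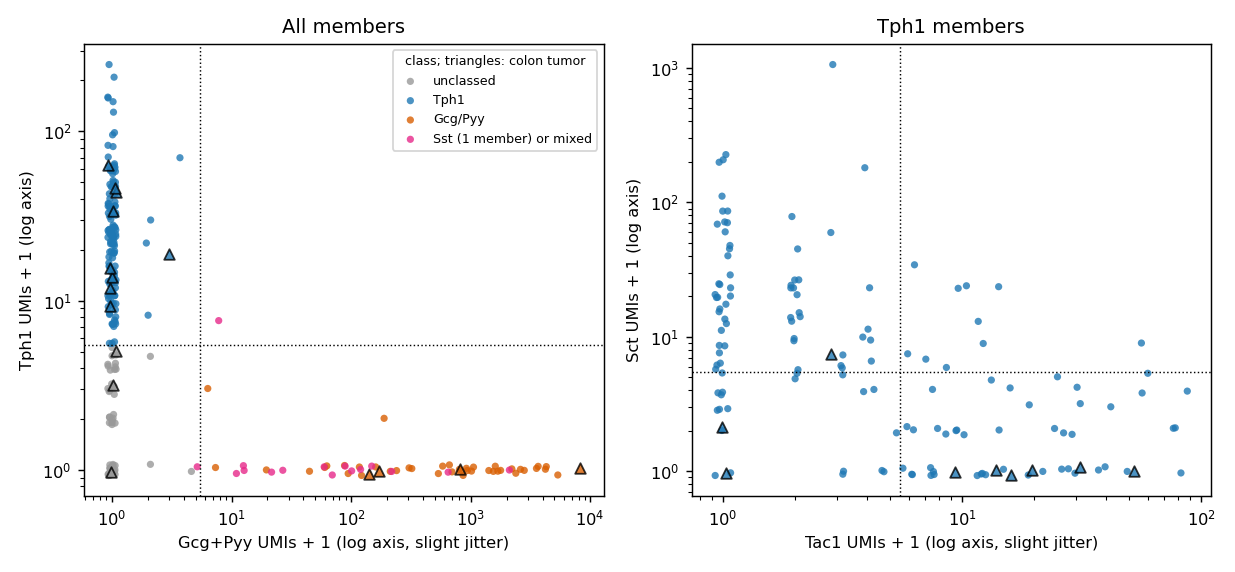
Left, Gcg plus Pyy UMIs (x axis) against Tph1 UMIs (y axis) in each of the 256 members, both plus 1 on log axes; right, Tac1 against Sct UMIs in the Tph1 members. Circles are mucosa and outlined triangles are tumor members, dotted lines mark the minimum of 5 UMIs, and members lie along the axes on the left with 1 point in the upper right corner.

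The classes differed in how much chromogranin RNA they carried. The median sum of Chga and Chgb was 294 UMIs in the 134 Tph1 members, whose median depth was 3993.5 UMIs, but 13 in the 40 Gcg/Pyy members, whose median depth was 10511. These genes belong to the gate, so the difference is given as a description. Of the Gcg/Pyy members, 20 had at least 5 Chgb UMIs, whereas all 134 Tph1 members did.

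Within the Gcg/Pyy members, Pyy, the peptide that slows gut transit and appetite, was the most abundant hormone transcript of the class rule, at 97146, 73782 and 61034 CPM in libraries 1 to 3. Gcg was at 33760, 16936 and 15178 CPM. Of the 40 members, 39 had at least 5 Pyy UMIs and 29 had at least 5 Gcg UMIs. Cck, the cholecystokinin precursor of the upper gut, was shared by 28 of the 29 members with Gcg. Insl5, the insulin-like peptide of distal colon L cells, reached 5 UMIs in 19 of the 40 members and neurotensin (Nts) in 10. Of the 40, 3 reached it for both, 16 for Insl5 alone, 7 for Nts alone and 14 for neither. Whether Insl5 and Nts kept apart was not tested. Nts was uneven between libraries, with 1 UMI in the Gcg/Pyy members of library 1 (6.95 CPM) against 21518 CPM in those of library 2 and 12027 CPM in those of library 3. Insl5, by contrast, was present in every library, at 11082, 12074 and 2732 CPM of the Gcg/Pyy members.

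Sst members were few and were mostly also Pyy members. At least 5 Sst UMIs were found in 5, 7 and 3 members of libraries 1, 2 and 3, with counts from 5 to 998 and a median of 467 UMIs. Of these 15, 14 had at least 5 Pyy UMIs, with 4 Pyy UMIs in the remaining member, and 1 had at least 5 Gcg UMIs. The same 15 members held at least 5 UMIs of Hhex, the transcription factor of D cells, in 11 cases and of Iapp, the amylin precursor, in 10. Tph1 had no UMI in any of them. One Sst barcode of library 3 held 84610 UMIs, far above the median of 5689 for the 15. With only 1 member in the Sst class alone, the comparison of Sst members with the other classes was not made.

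Tph1 members divided by the tachykinin precursor Tac1 (substance P) and by secretin (Sct). Of 134 mucosa Tph1 members, 45 had at least 5 Tac1 UMIs without 5 of Sct, 59 had at least 5 Sct UMIs without 5 of Tac1, 10 had both and 20 had neither. Members with both numbered 0 of 13 in library 1, 3 of 63 in library 2 and 7 of 58 in library 3, so the minority with both was seen in each of the larger libraries. Median depth was 5815 UMIs in the Tac1 set and 3250 in the Sct set. As background, a Tac1 UMI occurred in 17.6% to 28.0% and an Sct UMI in 7.85% to 12.0% of epithelial barcodes with no chromogranin UMI. In barcodes with a Ptprc UMI these shares were 1.46% to 3.62% for Tac1 and 2.72% to 3.19% for Sct, at a median depth of 1601 to 3636 UMIs against 10460 to 24415.

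The 50 unclassed members included the members with most Neurog3, the transcription factor that starts endocrine differentiation. Neurog3 reached 5 UMIs in 12 mucosa members, 9 of them unclassed, with 1, 4 and 7 in libraries 1, 2 and 3. All 12 had a Neurod1 UMI, 12 had an Insm1 UMI and 9 had a UMI of Pax4, both transcription factors of the endocrine lineage. Their median Chga plus Chgb count was 32, against 187 over all mucosa members. The proliferation gene Mki67 had a UMI in 2 of the 12. Tac1 reached 5 UMIs in 15 of the 50 unclassed members, and Tph1 was present below the minimum, at 1 to 4 UMIs, in 26.

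To describe the rest of the transcriptome, the UMIs of the mucosa members of each library were summed and compared with the sums of the other epithelial barcodes of the same library (edgeR quasi-likelihood test with the library as block, Benjamini-Hochberg adjustment over 13711 genes, gate genes left out). Of these genes, 35.1% passed, 2236 being higher in members (16.3%) and 2572 lower (18.8%), at an adjusted *P* under 0.05. The gate chose the same cells by their chromogranin counts, so the counts of genes that accompany chromogranin are a description of the members. The median log2 fold change over all genes was -0.06.

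The tested hormone and granule genes were all higher. The expression filter kept genes scarce in the other barcodes only where members carried them, which favours this direction here and in the endocrine lists below. All 11 tested peptide hormone genes of the 20 listed were higher in members, with a median log2 fold change of 7.94, including Pyy (42278, 23690 and 7704 CPM in libraries 1 to 3, against 29.0, 21.4 and 32.7 in the other barcodes), Gcg and Sst. All 22 tested genes of granules and secretion of 25 listed were higher, with a median of 8.24. Among them, Pcsk1n, a granule protein that inhibits the prohormone convertase Pcsk1, averaged 922 ± 196 CPM (SD, n = 3) against 0.587 ± 0.184 (log2 fold change 10.19 ± 0.29, SE; adjusted *P* = 7.03e-12 by edgeR). Snap25, a SNARE protein of vesicle fusion, averaged 139 ± 21.0 CPM against 0.281 ± 0.0665. The convertase Pcsk1, which also had 13.3, 8.19 and 7.90 CPM in the other barcodes, was at 197, 204 and 182 CPM in members.

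Of 9 tested serotonin genes of 11 listed, 7 were higher and 1 lower. Tph1, the rate-limiting enzyme of serotonin synthesis in the gut, averaged 2301 ± 585 CPM against 0.754 ± 0.647 in the other barcodes. Ddc, which completes serotonin synthesis and works on other amines too, averaged 618 ± 72.2 against 17.0 ± 1.45. The mechanosensitive channel Piezo2 averaged 60.7 ± 30.7 CPM against 0.0279 ± 0.0242, and the transcription factor Lmx1a averaged 64.3 ± 7.44 CPM against 0.0593 ± 0.0575. The serotonin-degrading enzyme Maoa was the lower gene, at 89.3 ± 44.6 against 185 ± 84.5 CPM (log2 fold change -1.43 ± 0.17, adjusted *P* = 1.62e-05 by edgeR). The serotonin transporter Slc6a4 did not pass, at 4.60 ± 2.64 against 1.87 ± 0.157 CPM.

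Among 23 endocrine transcription factors, 22 were higher in members and Atoh1, the factor of the whole secretory lineage, was lower, at 5.04 ± 6.71 against 80.4 ± 26.0 CPM. The largest level was that of Neurod1, at 656, 493 and 444 CPM against 0.759, 0.900 and 1.67. Insm1 (277 ± 59.4 CPM), Sox4 (291 ± 75.2 CPM) and Isl1 (268 ± 182 CPM) followed. Of these, Sox4 was also well expressed outside the members, at 74.9 ± 8.02 CPM, and its log2 fold change was 1.56 ± 0.16.

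Of 14 tested receptors of 23 listed, 10 were higher and 1 lower. Ffar2, a receptor of short-chain fatty acids, had 288, 268 and 248 CPM in members against 67.6, 39.9 and 33.1 in the other barcodes. The incretin receptor Glp1r had 40.4, 34.2 and 41.9 CPM against 0.102 or less. The bile acid receptor Gpbar1 and the lipid receptor Gpr119, both known from L cells, averaged 18.1 ± 10.2 and 18.9 ± 11.3 CPM. Ffar4, a long-chain fatty acid receptor, was lower, at 17.2 ± 15.8 against 28.7 ± 5.54 CPM, and it was not lower in library 1, where members had 35.3 against 32.8. Of 12 tested ion channel genes of 15 listed, 11 were higher, and next to Piezo2 the sodium channel Scn3a changed most, with 305, 147 and 179 CPM against 0.314 or less.

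**Figure D3:**
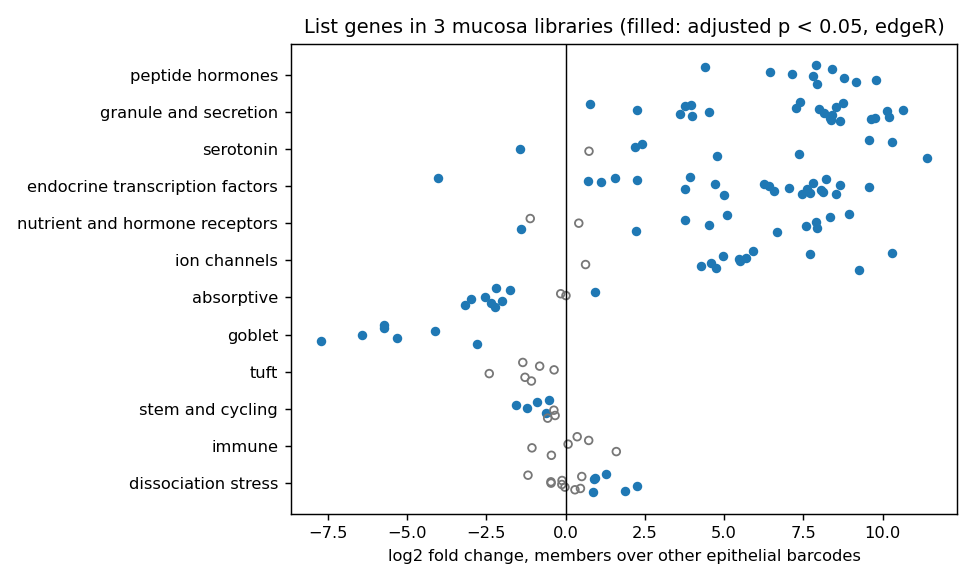
Log2 fold change of members over other epithelial barcodes in the 3 mucosa libraries (x axis), 1 point per tested gene with a UMI in both populations, by gene list (y axis). Filled points passed an adjusted P of 0.05 in edgeR. Hormone, granule and ion channel points lie to the right of 0 and goblet points to the left, while tuft and immune points are open.

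Goblet genes and most absorptive genes were lower in members. All 7 tested goblet genes of 8 listed were lower, with a median log2 fold change of -5.72, for example the mucus-associated Clca1 with 2 UMIs in members against 162 ± 43.5 CPM elsewhere, and the Muc2 limit of the gate favours this direction. Of 11 absorptive genes 8 were lower, among them the colonocyte carbonic anhydrase Car1 (0, 1732 and 1122 CPM against 143, 7826 and 8062). Krt20, a keratin of mature epithelium, was higher at 636 ± 35.5 against 307 ± 204 CPM (log2 fold change 0.91, adjusted *P* = 0.0176 by edgeR), but its log2 fold change was -0.17 without the 83 possible doublets, a set whose definition itself counts Krt20 UMIs. Of 8 stem and cycling genes 5 were lower, Lgr5 and Ascl2 not being among them, and both tested Paneth genes of 5 listed were lower. None of 6 tested tuft genes of 9 listed and none of 6 tested immune genes of 8 listed passed in edgeR. The neuronal genes Uchl1 and Elavl4 were higher. Of 15 genes that respond to tissue dissociation 6 were higher, for example Egr1 at 295, 201 and 253 CPM against 50.7, 35.5 and 35.9, and the part of dissociation in these differences was not tested.

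Outside the lists, the genes with the largest increase that moved the same way in each library included Il12a, Slc38a11, Olfr558, Map1b, Olfr560, Olfr78, Runx1t1, Efcab1 and Amigo2. Slc38a11, an amino acid transporter, had 98.4, 104 and 126 CPM in members against 0.0418 or less. Olfr78 and Olfr558, receptors of short organic acids, averaged 65.9 ± 28.7 and 63.6 ± 10.6 CPM against 0.0523 ± 0.0582 and 0.0139 ± 0.0241. Olfr560 belongs to the same large receptor family, whose members are similar in sequence, so reads could be split between them. The interleukin-12 subunit gene Il12a had 48 UMIs in 15 members and none elsewhere in the mucosa epithelium, which puts it at least 2081-fold higher when 3 counts over the group are taken as the floor. By the same rule, the 5 largest decreases in estimated log2 fold change outside the lists were those of Ccl9, Kcnk6, Cmtm8, Cma1 and Smim38. None of these had a UMI in a mucosa member, so their rank rests on estimates from zero counts. The counts themselves give only bounds, of at least 12.9-, 12.8-, 11.9-, 5.62- and 4.67-fold lower.

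The Gcg/Pyy and Tph1 members of mucosa were compared in the same way, with 9 and 13, 22 and 63, and 9 and 58 members in libraries 1 to 3. Over 3237 genes, with the class genes left out as well, 7.32% passed: 93 were higher in Gcg/Pyy members (2.87%) and 144 were higher in Tph1 members (4.45%) by edgeR at an adjusted *P* under 0.05. The median over all genes was 0.02.

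Of the 6 hormone genes tested in this comparison of 20 listed, 3 were higher in Gcg/Pyy members and 1 in Tph1 members. Insl5 had 4838 UMIs in Gcg/Pyy members and none in Tph1 members, at least 2871-fold higher at a floor of 3 counts. Ghrl, the ghrelin precursor, had 243, 382 and 700 CPM in Gcg/Pyy members and no UMI in Tph1 members, at least 118-fold higher. Cck had 4815, 3338 and 780 CPM against 0, 5.71 and 4.98 (log2 fold change 8.90 ± 0.35, adjusted *P* = 9.91e-10 by edgeR). Tac1 was the hormone gene higher in Tph1 members, at 2166, 1590 and 1192 CPM against 97.3, 4.07 and 10.0. Sct did not pass, at 1174, 9029 and 5813 CPM in Gcg/Pyy members against 10953, 2213 and 3536 in Tph1 members, with the order reversed in library 1. There 1 Tph1 member, a possible doublet, held 1022 of the 1315 Sct UMIs of the class, and without it the level was 2724 CPM. Without library 1 Sct was higher in Gcg/Pyy members (log2 fold change 1.44, adjusted *P* = 4.25e-21 by edgeR). That fit rests on libraries 2 and 3 alone, whose differences were unlike in size, so its *P* says little of the spread between mice. Sct was higher there without possible doublets too (1.75, adjusted *P* = 1.46e-06 by edgeR). Without library 2 or 3 the direction turned, with log2 fold changes of -1.22 and -0.44 that did not pass.

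The transcription factors split between the classes, 5 of 15 tested (of 23 listed) being higher in Gcg/Pyy members and 4 in Tph1 members. Isl1 had 591, 236 and 780 CPM in Gcg/Pyy members and only 2 UMIs in Tph1 members. Etv1 (418 ± 123 against 12.7 ± 10.7 CPM), Pax6 (160 ± 34.4 against 17.6 ± 9.53 CPM), Mlxipl, a glucose-responsive factor, and Hhex were also higher there, Hhex by at least 39.2-fold since no Tph1 member had a UMI. Higher in Tph1 members were Lmx1a (137 ± 43.4 against 2.32 ± 4.01 CPM), Foxa1, Sox4 and Neurod1 (711 ± 229 against 400 ± 74.8 CPM, log2 fold change -0.74 ± 0.18, adjusted *P* = 0.0175 by edgeR). The Neurod1 call was lost in DESeq2 (adjusted *P* = 0.525), without the block (0.260 in edgeR) and without library 1 (0.0708) or 3 (0.116). Insm1, Nkx2-2, Fev and Rfx3 did not pass. Insm1 was at 274 ± 55.8 in Gcg/Pyy and 269 ± 44.6 CPM in Tph1 members, a log2 difference of 0.07 ± 0.21.

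Of 18 tested granule genes of 25 listed, 2 were higher in Gcg/Pyy members, Scg2 (76.4, 236 and 160 CPM against 8.33, 0 and 0) and the calcium sensor Scgn (388 ± 137 against 16.5 ± 21.8 CPM), and 6 were higher in Tph1 members. The latter included Rab3c (488 ± 263 against 18.3 ± 17.4 CPM), Pcsk1n, Ptprn, Cadps and Snap25, which act in granule processing or fusion. Several general granule genes were at similar levels, for example Cpe, the exopeptidase of prohormone processing, with 494 ± 165 and 523 ± 192 CPM and a log2 difference of 0.02 ± 0.21. The vesicular amine transporter Slc18a1 was at 393 ± 68.7 CPM in Tph1 members, and Gcg/Pyy members held 1 UMI of it. Of the 5 serotonin genes tested of 11 listed, 3 were higher in Tph1 members, namely Slc18a1, Lmx1a and Ddc. The receptor Npy1r, which binds Pyy and neuropeptide Y, was also higher in Tph1 members (99.9, 54.2 and 82.1 CPM against 6.95, 0 and 0). Of 5 tested channels, Abcc8, the sulfonylurea receptor subunit of the ATP-sensitive potassium channel, was higher in Gcg/Pyy members (93.0 ± 46.3 against 0.952 ± 1.65 CPM).

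**Figure D4:**
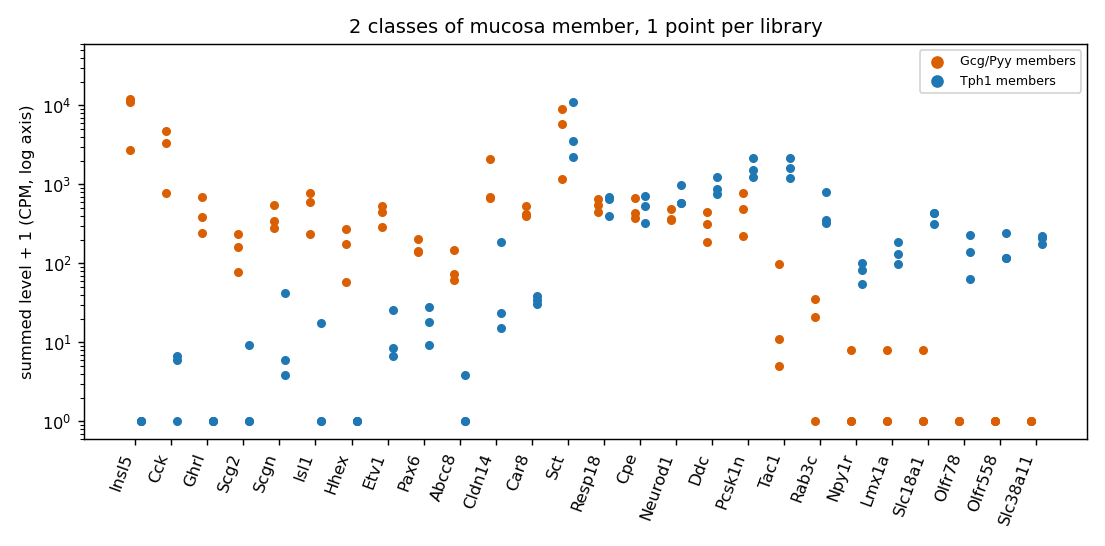
Summed level plus 1 in CPM (log axis) of selected genes (x axis) in Gcg/Pyy members (orange) and Tph1 members (blue) of mucosa, 1 point for each of 3 libraries. Orange points lie above blue from Insl5 to Car8 and below from Neurod1 to Slc38a11, while for Sct, Resp18 and Cpe they overlap.

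Outside the lists, the named genes higher in Gcg/Pyy members included Cldn14, Prodh, Gdf15, Car8, Scin, Map2, Gatm, Rprm and Gfra3. Cldn14, a tight junction protein, had 2112, 695 and 670 CPM against 183, 14.3 and 22.4, and Car8, a carbonic anhydrase-related protein, had 528, 394 and 420 against 33.3, 37.1 and 29.9. Gfra3, a receptor of the GDNF family, averaged 320 ± 78.6 against 38.1 ± 13.7 CPM. Higher in Tph1 members were Slc38a11, Olfr558, Olfr78, Cwh43, Sprr1a, Wif1, Agr3, Bmp2, Slpi and Gstt1. No Gcg/Pyy member had a UMI of Slc38a11, Olfr558, Olfr78 or Cwh43, which were at least 33.0-, 21.7-, 19.7- and 14.2-fold higher in Tph1 members. A UMI of Slc38a11 was found in 84 of 134 Tph1 members, of Olfr558 in 50 and of Olfr78 in 41. Wif1, a secreted Wnt inhibitor, had 433, 248 and 304 CPM in Tph1 members against 6.95, 4.07 and 0. Il12a, too low for the test here, had UMIs in 11 of 134 Tph1 and 0 of 40 Gcg/Pyy members, and in 1 of 15 mixed and 3 of 50 unclassed members. At so low a share, its absence from 40 members does not separate the classes. In this comparison the dissociation list had 3 of 9 tested genes (15 listed) higher in Tph1 members, among them Egr1 (483, 297 and 391 against 153, 65.0 and 180 CPM), and its part in the other differences was not tested. The absorptive genes Krt20 and Saa1 and the goblet gene Agr2 were also higher in Tph1 members and the goblet gene Tff3 in Gcg/Pyy members.

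The 16 tumor members were spread over all 10 tumors, with 1 to 3 in each. They comprised 9 Tph1 members, 4 Gcg/Pyy members and 3 unclassed members, and no Sst member (0 of 16, 95% exact binomial interval to 20.6%). Tph1 members were 56.3% of the 16 (29.9 to 80.2%, counting error only, over cells that share tumors and mice), and the mean share in mucosa was 53.2%. Possible doublets numbered 5 among the 16 tumor members, and all 5 were among the 9 Tph1 members. Their definition counts Krt20, of which these 9 Tph1 members held 72 of the 83 UMIs in tumor members. Whether the flagged barcodes were doublets was not tested. The 4 Gcg/Pyy members had 7213, 807, 170 and 137 Pyy UMIs, but Gcg was found in only 1 of them (552 UMIs) and Insl5 in 2 (790 and 22 UMIs). Neurod1 had a UMI in 14 of 16 and Ddc in 16 of 16. In the Tph1 members of tumors, 6 of 9 had at least 5 Tac1 UMIs without 5 of Sct and 1 had Sct without Tac1, against 45 and 59 of 134 in mucosa, a difference that was not tested since 9 members from 7 tumors leave 1 or 2 in each. Ptn, which had a UMI in 10.9% to 47.4% of tumor epithelial barcodes without chromogranin, had 3 UMIs in 1 of the 16 tumor members.

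Tumor members were compared with the mucosa members of the same mouse after their UMIs were summed per mouse (7, 4 and 5 tumor members in mice A, B and C), a comparison added after the data had been seen. The median mitochondrial share was 4.44% in tumor members and 2.83% in mucosa members, with medians by tumor from 2.29% to 11.8%, and its part in the differences was not tested. Of 4006 genes 1.2% passed, 25 being higher in tumor members (0.624%) and 23 lower (0.574%), by edgeR with the mouse as block. The median over all genes was -0.05. No granule gene (19 tested of 25 listed), no serotonin gene (7 of 11) and no ion channel gene (6 of 15) passed in either direction. With so few tumor members, not passing does not show that levels were alike. At an unadjusted *P* under 0.05 by edgeR, 6 granule, 2 serotonin and 3 ion channel genes differed, against 422 of all 4006 genes (10.5%), and DESeq2 called none of the 3 lists at an adjusted *P* under 0.05.

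Of 10 tested hormone genes, 4 were lower and 1 higher in tumor members. Sct had 35.2, 450 and 11.0 CPM in the tumor members of mice C, A and B against 3818, 3837 and 2512 in the mucosa members of the same mice (log2 fold change -4.77 ± 0.63, adjusted *P* = 0.000206 by edgeR), and a UMI in 6 of 16 against 167 of 240 members. The member of library 1 with 1022 Sct UMIs set most of the 3818 CPM, which was 1279 CPM without it. In the other epithelial barcodes Sct was likewise lower in tumors, at 4.62 ± 1.18 against 20.5 ± 11.7 CPM. Sct was lower too when Tph1 members alone were compared, with a log2 fold change of -6.12, but without the mouse as block it did not pass (adjusted *P* = 0.108 by edgeR). Sst (at least 231-fold), Ghrl (at least 9.85-fold) and Iapp (1 UMI in tumor members) were also lower. These 3 genes were carried by few cells, since Sst had a UMI in 18 of 240, Ghrl in 19 of 240 and Iapp in 33 of 240 mucosa members, so with 16 tumor members a share as low as that of mucosa cannot be told from absence. Ppy, the pancreatic polypeptide gene beside Pyy, was higher, with 57 and 179 UMIs in 2 Gcg/Pyy members of tumors 8 and 9 and 42 UMIs in 3 of 240 mucosa members. The adjusted *P* of Ppy was 2.11e-05 in edgeR but 0.227 in DESeq2, and 0.0754 in edgeR without the block. Tph1 (1521 ± 1205 against 2301 ± 585 CPM), Pyy, Gcg and Insl5 did not pass, and 1 tumor member held 7213 of the 8329 Pyy UMIs. In the other epithelial barcodes Pyy was higher in tumors, at 153 ± 65.9 against 27.7 ± 5.74 CPM. Gcg was lower there, at 0.555 ± 0.961 against 17.3 ± 8.32 CPM. The source of the Pyy RNA outside the members was not tested.

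Reg4, a secreted lectin, was lower in tumor members. It had 1113, 955 and 731 CPM in the mucosa members of libraries 1 to 3 and no UMI in tumor members, at least 65.5-fold lower, with a UMI in 77 of 240 against 0 of 16 members (interval to 20.6%). In the other epithelial barcodes Reg4 was at 175 ± 97.2 CPM in tumors and 128 ± 53.4 in mucosa. Reg3b, an antimicrobial lectin, was at 80.0 ± 122 CPM against 3310 ± 3030 (log2 fold change -5.64 ± 0.58, adjusted *P* = 1.41e-05 by edgeR), and in the other epithelial barcodes it was likewise lower in tumors, at 597 ± 333 against 7348 ± 6367 CPM. Free RNA of the surrounding tissue can add to such abundant genes, and its part was not tested. Reg3g and Dmbt1, a mucosal scavenger receptor, were lower as well, as they were in the other epithelial barcodes of tumors (log2 differences of -1.85 and -1.68). In the Tph1 class alone Dmbt1 did not pass (log2 fold change -2.35, adjusted *P* = 0.0812 by edgeR). The colon homeobox gene Cdx2 (21.0 ± 18.2 against 170 ± 39.7 CPM) and the absorptive gene Fabp2 (no UMI in tumor members) were lower, and both were lower in the other epithelial barcodes of tumors too, at 8.75 ± 4.42 against 202 ± 30.0 CPM for Cdx2 and 13.2 ± 13.2 against 755 ± 263 CPM for Fabp2. Without the mouse as block Reg4 still passed in edgeR, while Reg3b (adjusted *P* = 0.176), Cdx2 (0.0747) and Fabp2 (0.124) did not. Sult1a1, Ethe1, Lgals3, Car2, Car8, Tff3 and Hhex completed the named genes that were lower, of which Car2 did not pass in the Tph1 class alone (adjusted *P* = 0.0552 by edgeR). Hhex was carried by few cells, with a UMI in 25 of 240 mucosa and 0 of 16 tumor members. Of its 204 UMIs in mucosa members, 129 lay in the 15 members with at least 5 Sst UMIs. With 16 tumor members, a share of Hhex cells as low as that of mucosa cannot be told from absence. In the other epithelial barcodes the log2 difference of tumors from mucosa was -4.89 for Sult1a1, -4.28 for Car8, -2.67 for Ethe1, -1.41 for Car2, -0.89 for Lgals3, -0.16 for Tff3 and 2.70 for Hhex.

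**Figure D5:**
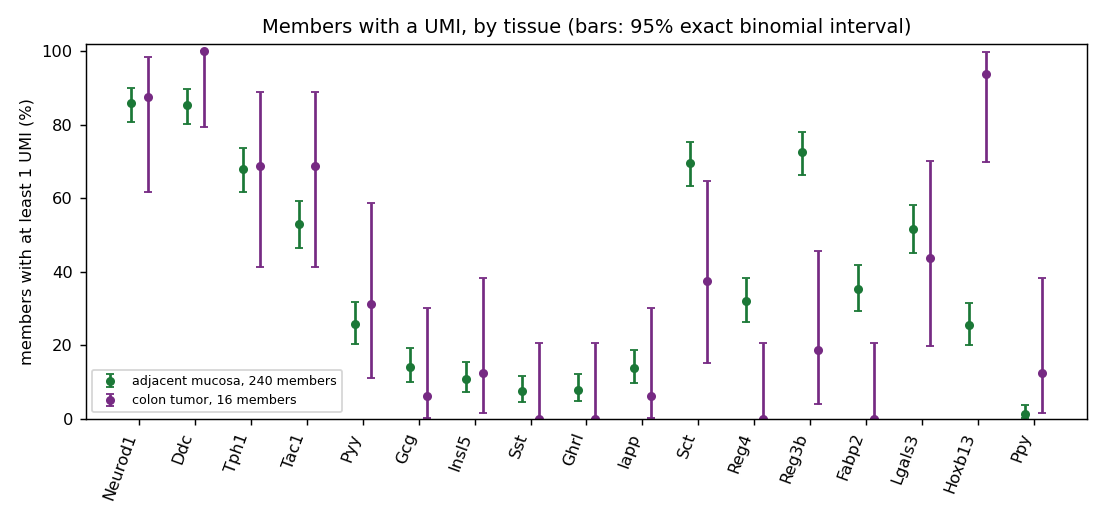
Percentage of members with at least 1 UMI (y axis) for selected genes (x axis), in the 240 mucosa members (green) and the 16 tumor members (purple). Bars are 95% exact binomial intervals over cells and cover counting error only. Hoxb13 is higher in tumor members and Reg4, Reg3b and Fabp2 lower with intervals apart, while those of Neurod1, Tph1, Pyy, Gcg and Sst overlap.

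Higher in tumor members was Hoxb13, a homeobox gene of the distal colon, with 598, 390 and 253 CPM in mice C, A and B against 139, 73.5 and 113 (log2 fold change 1.87 ± 0.34, adjusted *P* = 0.00643 by edgeR). It had a UMI in 15 of 16 tumor members and in 61 of 240 mucosa members, whose median depths were 10151 and 5176 UMIs. In the other epithelial barcodes Hoxb13 was at 211 ± 23.1 CPM in tumors and 105 ± 35.4 in mucosa. Lars2, Trim24, Bex2, Tuba1a and Uchl1 were the other named genes that were higher, and none of these 5 passed in DESeq2 or, in edgeR, without the block. In the Tph1 class alone Lars2 (log2 fold change 0.47, adjusted *P* = 0.986 by edgeR), Bex2 (1.20, 0.549) and Tuba1a (1.31, 0.244) did not pass. In the other epithelial barcodes the log2 difference of tumors from mucosa was 4.07 for Tuba1a, 3.02 for Uchl1, 2.31 for Lars2, 0.83 for Trim24 and -0.69 for Bex2. Through the alternatives 40 genes of this comparison were followed, the named genes that passed and a fixed set that included genes that had not. Of these 40, 6 kept their direction and their side of the threshold under every alternative in which they could be tested. For a gene that had not passed, keeping its side meant not passing again, so the 6 are not a count of stable differences. Of 11 tested dissociation-responsive genes (15 listed), 4 were higher in tumor members, Fosb, Egr1, Ier3 and Dusp1, and these 4 were also higher in the other epithelial barcodes of tumors, for example Egr1 at 292 ± 114 against 40.7 ± 8.69 CPM. In the Tph1 class alone Egr1 (log2 fold change 1.13, adjusted *P* = 0.411 by edgeR) and Fosb (1.12, 0.577) did not pass, while Dusp1 did. These values move with the tissue and with the dissociation method, and the part of each was not tested. Without the 5 possible doublets among tumor members and those of mucosa, Reg4, Reg3b, Sct and Sst still passed, Hoxb13, Fosb, Egr1 and Dusp1 did not, and Ier3 was too low to be tested. Reg4 and Sst had no UMI in any tumor member, so leaving out tumor members could not change their level there. Of the 15 mucosa members with at least 5 Sst UMIs, 1 was a possible doublet, so this check says little of Sst. Without the block the adjusted *P* of Hoxb13 was 0.0520 by edgeR, Egr1, Fosb and Dusp1 did not pass either, and Ier3 did. Without mouse A that of Hoxb13 was 0.118.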

How the data were processed

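Single-cell RNA of 13 mouse libraries was read from the count matrices the authors deposited, whole-number UMI counts per gene and barcode with no normalization, made with Cell Ranger 6.0.0 and mm10 per the submitters' processing notes. The barcode filter required 500 UMIs, 200 detected genes and a mitochondrial share below 25%, and no doublet caller was run. The members, classes and gene lists were chosen with earlier results of these data known. Counts of members were summed per library and tested with edgeR 4.0.16 (quasi-likelihood, TMM, low genes filtered by expression) in R 4.3.3, with the library or mouse as block since mucosa and tumors share animals, and checked on simulated counts. Mucosa replicates come from separate mice, and the 10 tumors come from 3 mice. Shares were compared by exact permutation within mice (scipy 1.17.1), with 95% exact binomial intervals. Named genes were all list genes plus those outside the lists with the largest fold at an adjusted P under 0.05, the same sign in 3 libraries and at least 10 UMIs in each library of the higher population. Alternatives included DESeq2 1.42.0, other thresholds and leaving out libraries. The Sst class test and protein sequences were not analysed here. Some named genes are not reported here.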

Additional observations from a re-analysis of the deposited data

Results flagged for a closer look

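Among the 10 tumors, tumor 10 held 3 enteroendocrine members and the others 1 or 2, a gap to the nearest tumor of 0.5 of the whole range, which is above the critical value of Dixon's test for 10 samples. The counts are small whole numbers with ties. As a share of epithelial barcodes, the same tumor was at 0.243% and its gap was 0.410 of the range, under the critical value. Dixon's test picks out about 1 group in 20 by chance, and 2 measures were tested.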

How the results depend on the processing

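The lower member share in tumors kept its direction under 6 other thresholds or denominators and after thinning, with differences from -1.37 to -0.858 points, and P stayed at 0.0133, the smallest possible, which says nothing of stability. The tumor share itself was 0.266% against 1.63% in mucosa at a Chga plus Chgb minimum of 2 UMIs, up from 0.110% against 1.39%. Leaving out a mucosa library with its mouse's tumors, or a single tumor, gave differences from -1.37 to -1.23 points, and without adjacent mucosa replicate 1 or 2 the exact P was 0.0667 because fewer assignments exist. Genes called between members and other epithelial barcodes numbered 4808, and 3030 to 5100 with 1 mucosa library left out. Between Gcg/Pyy and Tph1 members 237 genes were called, against 96 by DESeq2, 397 with no filter beyond 1 UMI and 107 without the replicate block, and leave-one-out gave 141 (without replicate 3) to 346. Between tumor and mucosa members 48 genes were called, against 20 by DESeq2, 189 with no filter beyond 1 UMI, 12 without the replicate block, 11 in the Tph1 class alone and 21 without possible doublets, and 44 to 128 (without replicate 1) with a mouse left out. Of the 48, DESeq2 called 20, and without the block 12 were called in the same direction. The cause of these shifts was not tested. Directions reversed in few named genes. On the log2 scale, Krt20 in members was -0.17 without possible doublets, whose definition counts Krt20, and Jun between the classes was 0.011 there. Sct between the classes ran, with 1 library left out, from -1.22 without mucosa replicate 2 to 1.44 without replicate 1, with -0.44 without replicate 3, and was -0.13 at a class minimum of 10 UMIs and 1.75 without possible doublets. In tumor members, without the replicate block Insl5 was 0.22 and Pyy 0.39, and with a mouse left out they ran from -2.85 and -4.56 (without mucosa replicate 2) to 0.40 and 0.32 (without replicate 1). Tac1 there ran from -0.57 to 0.28 (without mucosa replicate 2) with a mouse left out, and was 0.24 without the tumor member of over 50000 UMIs and -1.04 without possible doublets. The comparison of Sst members with the other classes was not run, as too few members carried Sst alone. The tumor members held 28439 to 100006 UMIs per mouse, over 4 to 7 members, and 1 member of tumor 10 held 56796 of the 90940 UMIs of mouse B.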
